A study of Caenorhabditis elegans with 2 samples.

Results

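The heterochronic protein-coding genes examined here are lin-14, lin-28, lin-41, lin-42, hbl-1, lin-29, blmp-1, ain-1, daf-12 and lin-46, 10 of the 19973 nuclear protein-coding genes of the annotation. They were read for peaks of CEH-16, the worm engrailed homologue, in whole L3 larvae. The genes were picked by name with peak values of these lists already known, so every value below describes them and none is a test. A peak belonged to a gene where its summit, the base of highest signal, lay in the gene body or up to 5000 bp upstream of the gene start.

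The heterochronic pathway is the genetic clock that gives each larval stage of the worm its own cell divisions, above all in the seam cells of the skin. Early in larval life the transcription factors LIN-14 and HBL-1 and the RNA-binding protein LIN-28 hold cells in early fates, and small RNAs of the lin-4 and let-7 families then silence them in turn. Late in larval life LIN-41 is silenced as well, which lets LIN-29 drive the switch to the adult skin. CEH-16 is itself a seam cell factor, known for keeping seam cells from fusing with the skin syncytium.

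Chromatin came from strain OP82, genotype unc-119(tm4063) III; wgIs82, in which an inserted transgene makes CEH-16 with GFP and FLAG joined to its C terminus. Both replicates share this genotype, the L3 stage and mixed sex, and the labels give the age as unknown. They are labelled as 2 biological replicates and form 1 group, with no second condition to set against it. Whole animals were used, so the cells in which a peak arose cannot be told apart, and the tagged protein came from a transgene.

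The deposited data are peak lists. The list from pooled replicates held 30000 peaks, the replicate 1 list 19150 and the replicate 2 list 30000, all called at a relaxed setting. The list thresholded by reproducibility between replicates held 189 nuclear and 25 mitochondrial peaks, which were exactly the strongest of the pooled list. An equal number of strongest peaks was taken from each replicate list and is called its top set below. Peak signal is a value the authors computed, on a scale that is not given, and rank 1 is the highest signal in a list. Signals at the end of the top set were 43.6 in the pooled list, 20.7 in replicate 1 and 29.2 in replicate 2, and the lowest listed signals were 11.5, 6.13 and 8.14 in the same order. The lists hold no read counts, and the depth of each replicate is unknown.

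The sequences that carry the main contrasts are the 101 bases around summits. The first 3 are the strongest replicate 1 summits of ain-1, lin-42 and daf-12, where replicate 2 was weak or had no summit nearby. The next 3 are the strongest pooled summits of lin-14, lin-42 and daf-12. At lin-14 both replicates had a high summit. At lin-42 replicate 1 had no summit within 200 bp, and at daf-12 replicate 2 was the higher. The last is the strongest pooled summit of lin-29. All are from the RefSeq genome sequence of the WBcel235 assembly (ce11), written 5' to 3' on the strand of the gene, with the word GAGAGA or its reverse complement TCTCTC in capitals where present, 1 copy of each marked.
ain-1, replicate 1 summit, chrX:16612533-16612633, + strand: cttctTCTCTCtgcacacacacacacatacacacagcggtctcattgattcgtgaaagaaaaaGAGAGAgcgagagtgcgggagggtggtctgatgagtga
lin-42, replicate 1 summit, chrII:1247024-1247124, - strand: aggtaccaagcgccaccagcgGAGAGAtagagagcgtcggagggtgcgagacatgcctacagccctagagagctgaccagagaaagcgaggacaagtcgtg
daf-12, replicate 1 summit, chrX:10637635-10637735, + strand: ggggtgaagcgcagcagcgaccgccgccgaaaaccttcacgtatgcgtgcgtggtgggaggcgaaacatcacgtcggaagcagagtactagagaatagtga
lin-14, pooled summit, chrX:11472010-11472110, + strand: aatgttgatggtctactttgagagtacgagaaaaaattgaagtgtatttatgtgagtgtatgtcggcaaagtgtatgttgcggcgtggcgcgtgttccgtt
lin-42, pooled summit, chrII:1246363-1246463, - strand: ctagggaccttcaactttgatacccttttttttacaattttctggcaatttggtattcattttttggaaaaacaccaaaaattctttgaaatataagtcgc
daf-12, pooled summit, chrX:10642292-10642392, + strand: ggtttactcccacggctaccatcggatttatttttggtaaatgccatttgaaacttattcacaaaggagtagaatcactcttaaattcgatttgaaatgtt
lin-29, pooled summit, chrII:11936823-11936923, - strand: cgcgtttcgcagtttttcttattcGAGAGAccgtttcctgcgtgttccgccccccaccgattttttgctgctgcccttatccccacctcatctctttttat
The replicate 1 windows of ain-1, lin-42 and daf-12 had a GC content of 49.5%, 59.4% and 58.4%. The pooled windows of lin-42, where replicate 1 had no summit within 200 bp, and daf-12, where replicate 2 was higher, had 30.7% and 34.7%. This split did not hold at every summit. A replicate 2 summit of daf-12 at 1195 bp, not printed here, had 61.4%. Its signal was 19.2, and the nearest replicate 1 summit was 582 bp away. The strongest replicate 1 summit of hbl-1, 3286 bp upstream and not printed here, had 26.7%. Its signal was 14.2, and the nearest replicate 2 summit was 381 bp away. The lin-29 window had 50.5%. Its signals, 8.54 in replicate 1 and 12.6 in replicate 2, gave a ratio at percentile 41.4 of all matched nuclear peaks. GAGAGA was in the ain-1 window on both strands, in the replicate 1 window of lin-42 and in that of lin-29, and was absent from the windows of lin-14, from both of daf-12 and from the pooled window of lin-42.

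All 10 genes had at least 1 pooled summit, against 86.7% of all protein-coding genes. All 10 also had a summit in the replicate 1 list, against 74.9% of all genes, in the replicate 2 list, against 87.1%, and in both, against 68.1%. The shares in the pooled and replicate 2 lists are near the ceiling. The genes were also picked with peak values known, so the counts say little about the members. The thresholded list held a summit of 1 of 10, blmp-1, where 1.8% of all genes had one (1.96% of the 10704 genes with windows as long as the members').

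The replicates differed in how many of these genes stood at the top. In the top set of replicate 1 were summits of 5 of 10, namely lin-41, ain-1, lin-28, blmp-1 and lin-14, against 1.74% of all genes and 2% of genes of like window length. The top set of replicate 2 held a summit of 1 of 10, blmp-1, against 1.68% and 1.86%. Within the strongest 1000, replicate 1 had 8 of 10, all but lin-29 and lin-46 (7.62% of all genes, 8.93% at like length). Replicate 2 had 3 of 10, blmp-1, daf-12 and lin-42 (7.72% and 9.27%), and the pooled list had 5 of 10, namely blmp-1, lin-41, lin-14, lin-28 and daf-12 (7.7% and 8.89%). The members were chosen with these ranks known, so the distance from the shares of all genes is no evidence about the group.

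**Figure D1:**
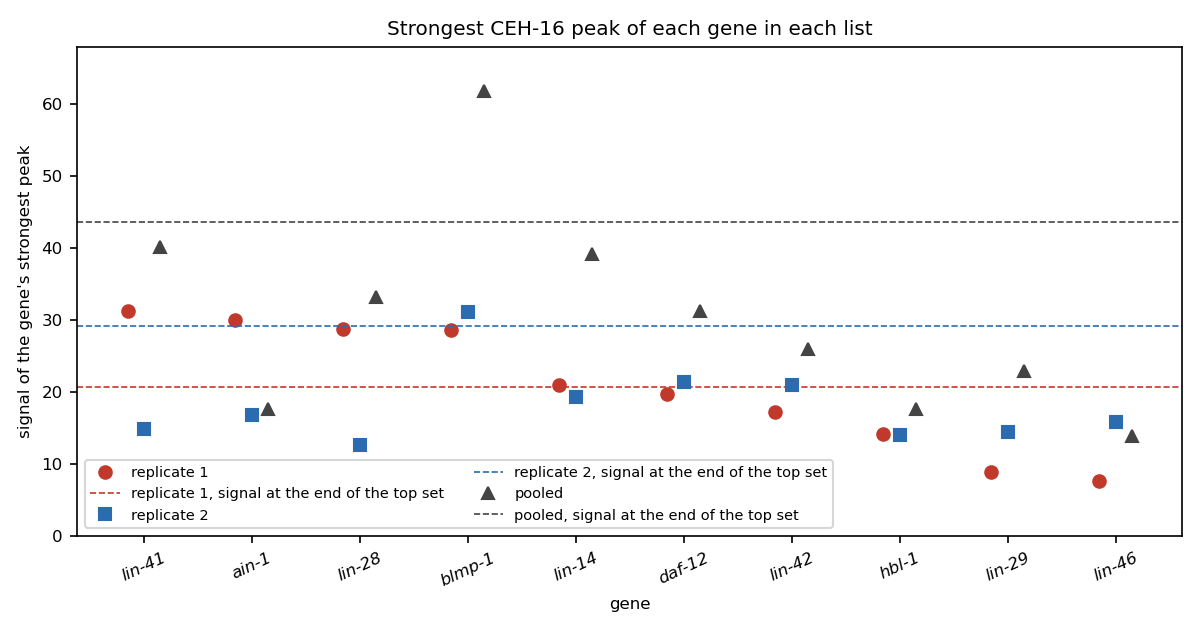
The signal of the strongest peak of each of the 10 genes is plotted in each list, with genes on the x axis ordered by replicate 1 and dashed lines at the signal where the top set of each list ends. The points of lin-41, ain-1, lin-28, blmp-1 and lin-14 lie above the replicate 1 line, and in replicate 2 the point of blmp-1 alone lies above its line.

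Among the early-acting genes, lin-14 carried the most summits of the 10, 19 in the pooled list, 16 in replicate 1 and 18 in replicate 2. The gene runs on chromosome X from 11465560 to 11485871 on the + strand. LIN-14 is a DNA-binding protein whose mRNA was the first known target of a microRNA. Its strongest pooled summit lay in an intron, 6500 bp from the gene start, where the pooled list had 39.2 (rank 310), replicate 1 had 20.9 (rank 202) and replicate 2 had 19.3 (rank 1336). The replicate summits were 38 bp apart, and the pooled signal was 89.9% of the lowest thresholded one. The strongest replicate 2 summit of lin-14 lay elsewhere, at 8361 bp, with 19.32 (rank 1324). Its replicate 1 partner, 142 bp away, had 9.51 (rank 5188). The next 3 pooled summits had signals of 29.7 in the 3' UTR, 29.2 in an intron and 24.3 at 3209 bp upstream. At the 3' UTR site replicate 2 had 17.3 and replicate 1 had 7.21, the lowest replicate 1 share of any matched member pair. The pooled summit there lay 50 bp from the small RNA gene T25C12.11. The other intronic summits of lin-14 were weaker in the pooled list, with ranks between 3952 and 20805.

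The gene lin-28, on chromosome I from 8407630 to 8410804 on the - strand, encodes the RNA-binding protein that blocks let-7 maturation. Its strongest summit was in an intron, 883 bp into the gene and 1 bp from the start of a second annotated transcript. The pooled signal was 33.3 (rank 564), and replicate 1 had the same summit base at 28.7 (rank 78). The nearest replicate 2 summit was 2011 bp away, and replicate 2 had none in the gene body. The strongest replicate 2 summit of lin-28 lay 1128 bp upstream, nearer to the start of the neighbour F02E9.7, with a signal of 12.7 (rank 8909). The intronic site therefore stood in the replicate 1 and pooled lists and was missing from the relaxed replicate 2 list, whose lowest signal was 8.14.

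All summits of hbl-1 lay upstream, 5 in the pooled list, 3 in replicate 1 and 4 in replicate 2, and none was in the gene body in any list. HBL-1 is the worm relative of the fly zinc-finger protein Hunchback, and its gene runs on chromosome X from 5822142 to 5827755 on the + strand. The strongest pooled summit, 2241 bp upstream, had a signal of 17.7 (rank 8752). Replicate 2 had a summit 1 bp away at 13.9 (rank 6118), and the nearest replicate 1 summit was 1045 bp off. In replicate 1 the strongest hbl-1 summit was 3286 bp upstream at 14.2 (rank 992), and the nearest replicate 2 summit was 381 bp away. No hbl-1 summit of one replicate had a partner within 200 bp in the other.

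The gene lin-46, on chromosome V from 12968855 to 12970730 on the + strand, encodes a gephyrin-like protein that acts downstream of lin-28. It had the fewest summits, 1 in the pooled list, 1 in replicate 1 and 2 in replicate 2. The pooled summit, in an intron 802 bp into the gene, had a signal of 13.9 (rank 18999). The replicate 1 summit lay 523 bp upstream at 7.56 (rank 11144), and the stronger replicate 2 summit lay in coding sequence 691 bp into the gene at 15.8 (rank 3651). These summits were 1214 bp apart, so the replicates shared no site at lin-46.

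Of the late-acting genes, lin-41 showed the highest replicate 1 signal of the 10. LIN-41 is an RNA-binding protein of the TRIM-NHL family and a target of let-7, encoded on chromosome I from 9334800 to 9342496 on the - strand. Its strongest pooled summit, 1586 bp upstream, had a signal of 40.1 (rank 286), 92.1% of the lowest thresholded signal. The replicate 1 summit 52 bp from it had 31.3 (rank 64). The nearest replicate 2 summit lay 255 bp from the replicate 1 summit, at 10.1 (rank 18217), and was paired with a weaker replicate 1 summit of 11.9 (rank 2083). The upstream region thus held a high summit in replicate 1 and low ones in replicate 2, the highest of these being 14.9 (rank 4619) at 2211 bp upstream. A 3' UTR summit was shared, at 22.9 in the pooled list, where replicate 1 had 8.53 and replicate 2 had 11.7.

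The gene lin-29, on chromosome II from 11917642 to 11935343 on the - strand, encodes the zinc-finger factor of the adult skin switch. Its strongest pooled summit was 1530 bp upstream at 22.98 (rank 2919), with 8.54 in replicate 1 (rank 7605) and 12.6 in replicate 2 (rank 9042), the replicate summits lying 5 bp apart. The summit window held GAGAGA. The strongest replicate 1 summit, 710 bp upstream, reached 8.81 (rank 6823), and the strongest replicate 2 summit, in the 3' UTR, reached 14.4 (rank 5442). Like lin-46, lin-29 was outside the strongest 1000 in all lists.

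The gene blmp-1 had the only thresholded summit among the 10, high in both replicates. BLMP-1 is the worm relative of the zinc-finger repressor Blimp-1 and acts in skin timing and gonad cell migration, and its gene runs on chromosome I from 10409302 to 10414773 on the + strand. The thresholded summit lay 3168 bp upstream at a pooled 61.9 (rank 85), where replicate 1 had 28.6 (rank 80) and replicate 2 had 31.2 (rank 169), the replicate summits 4 bp apart. It lay within the non-coding RNA gene F25D7.8, had GAGAGA within 50 bp and a GC content of 52.5%. Summits on either side of it had pooled signals of 31.2 at 2962 bp upstream and 30.8 at 4060 bp upstream, ranks 753 and 797, and GAGAGA was present at each. The summit 4060 bp upstream had 17.1 in replicate 1 (rank 439) and 10.9 in replicate 2 (rank 14639), so here too the replicates were unequal.

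The gene ain-1, on chromosome X from 16613451 to 16616871 on the + strand, encodes a GW182-family protein of the microRNA silencing complex. Replicate 1 had a summit 868 bp upstream at 30.0 (rank 71), and the replicate 2 summit 102 bp away had 9.79 (rank 19817). This was the most unequal member pair, with a log2 ratio of replicate 1 over replicate 2 of 1.62, at percentile 99.9 of all matched nuclear peaks. The pooled list did not follow replicate 1. The pooled summit nearest to that site, 59 bp away, had 12.1 (rank 26805), and the strongest pooled ain-1 summit was 1097 bp upstream at 17.6 (rank 9007). The strongest replicate 2 summit lay 1194 bp upstream at 16.8 (rank 2710). At lin-41 and lin-28 the pooled signals exceeded those of replicate 1. The ain-1 window carries a run of CA repeats beside GAGAGA, visible in the sequence printed above.

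The gene lin-42, on chromosome II from 1233236 to 1252359 on the - strand, encodes the worm relative of the circadian protein Period, whose level cycles with each moult. Its strongest sites differed between replicates. Replicate 2 and the pooled list had an intronic summit, 5951 and 5946 bp into the gene, at 21.0 (rank 896) and 26.0 (rank 1646). Replicate 1 had its strongest summit at 5285 bp, 666 bp from the replicate 2 summit, at 17.1 (rank 436), within the non-coding RNA gene F47F6.15. The replicate 1 window was rich in G and C and held GAGAGA, and the other was rich in A and T without it. No lin-42 summit of replicate 1 had a replicate 2 summit within 200 bp.

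The gene daf-12, on chromosome X from 10635908 to 10666875 on the + strand, encodes the nuclear hormone receptor that joins larval timing to the choice of dauer arrest. It had 17 pooled summits, 13 in replicate 1 and 16 in replicate 2. The strongest pooled summit was in an intron 6434 bp into the gene at 31.3 (rank 736), with 8.75 in replicate 1 (rank 6989) and 18.9 in replicate 2 (rank 1511). The next, 1743 bp into the gene, had a pooled signal of 29.6 (rank 955), with 19.7 in replicate 1 (rank 256) and 11.6 in replicate 2 (rank 12159). The first was higher in replicate 2 and the second in replicate 1, within the same gene. Another site, 12125 bp into the gene, reached 27.8 (rank 1233) in the pooled list, with 11.9 in replicate 1 and 14.2 in replicate 2, and the replicate summits lay 2 bp apart. At 19825 bp the pooled signal was 25.4 and replicate 2 had 21.3 (rank 827), with the nearest replicate 1 summit 3683 bp away. A summit in the 5' UTR, 11 bp from the start of an internal transcript, had 22.0 pooled, 11.9 in replicate 1 and 11.5 in replicate 2.

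**Figure D2:**
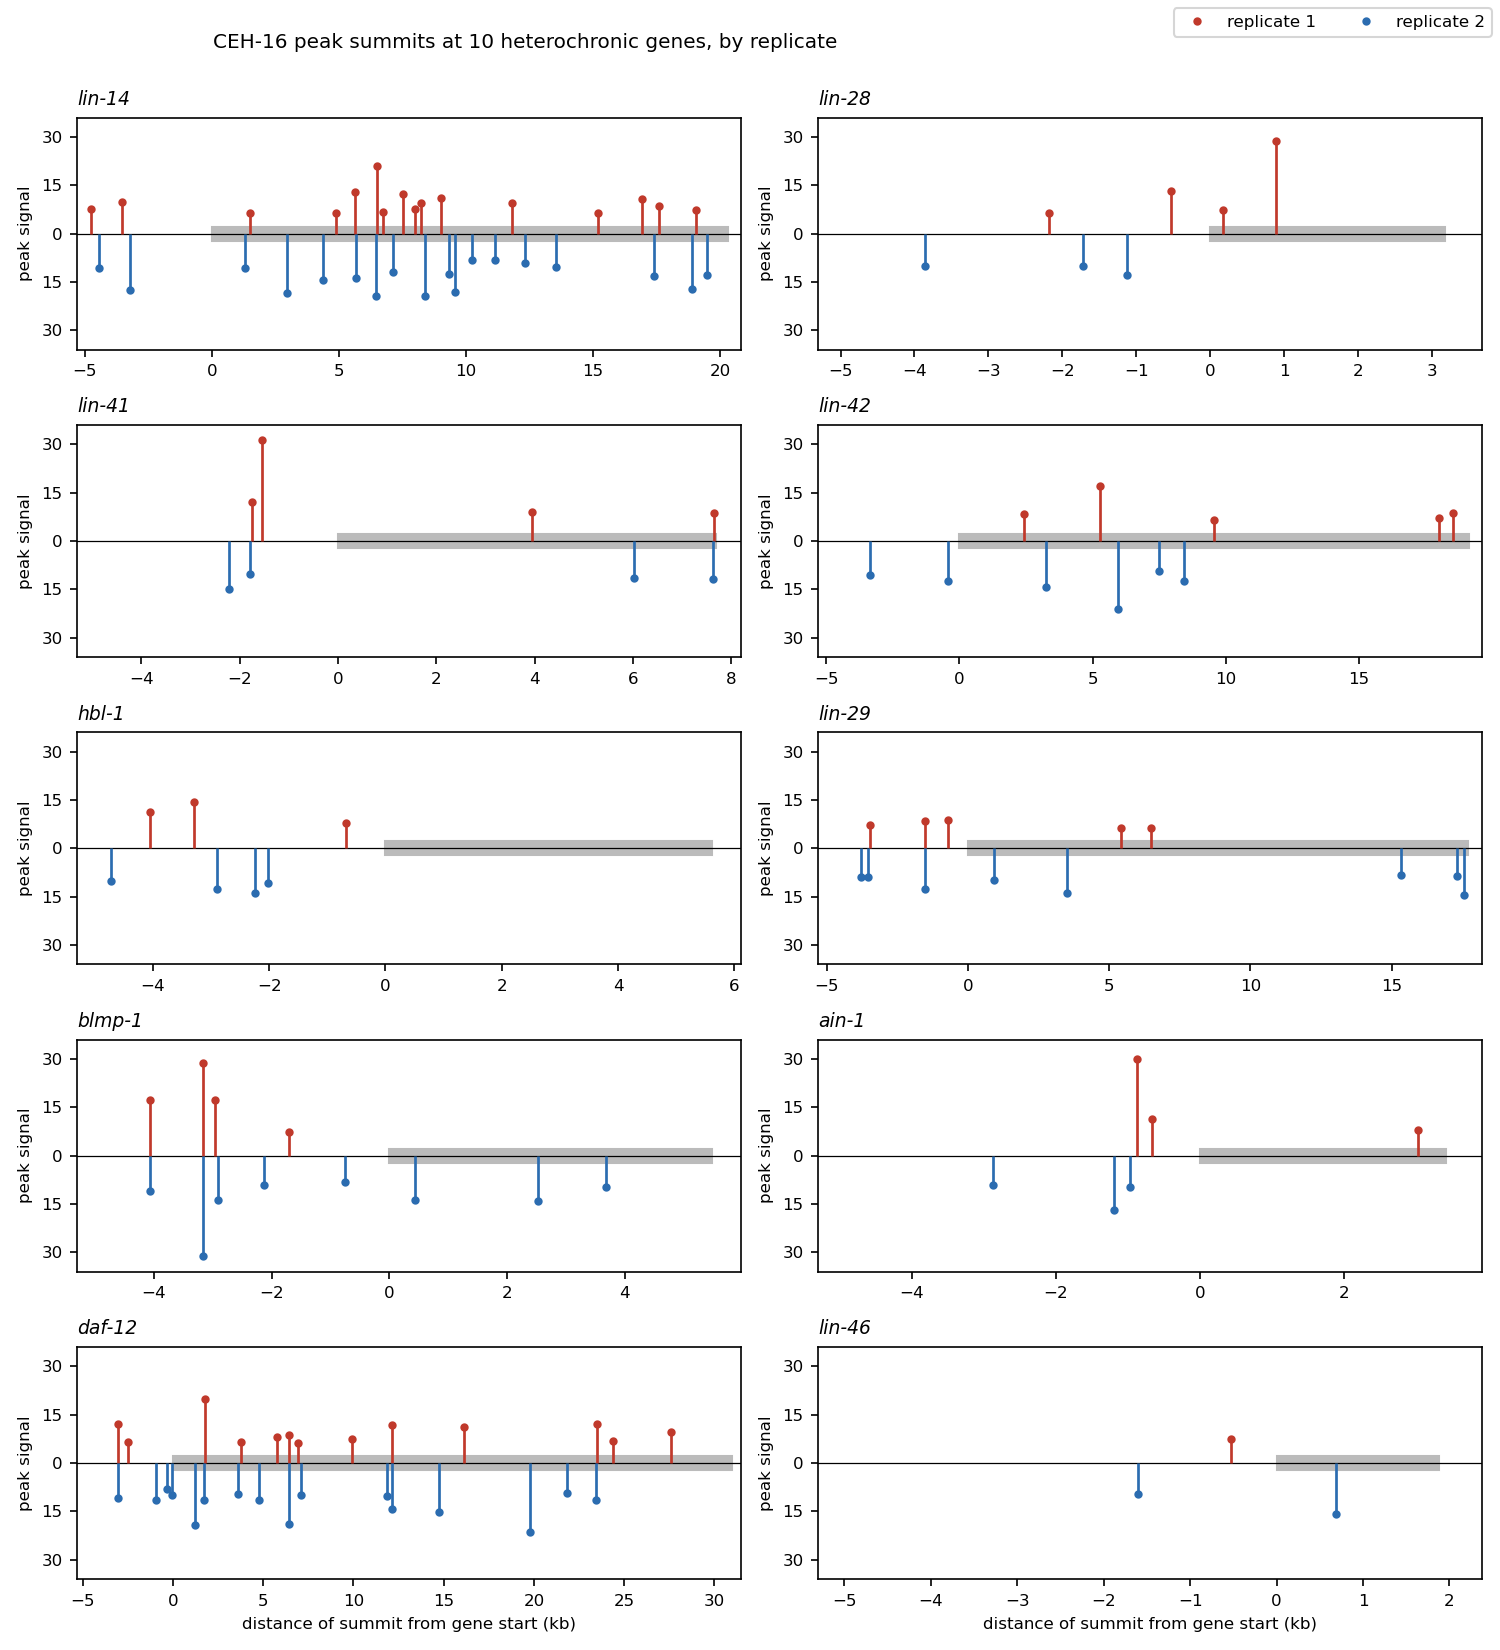
Every replicate summit is drawn at its distance from the gene start in kb, replicate 1 upward in red and replicate 2 downward in blue, with height giving the peak signal and the grey bar the gene body. The tall red lines at lin-28, lin-41 and ain-1 have no blue line of like height beside them, and the tallest of blmp-1, 28.6, has one of 31.2.

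Across all 10 genes, matched replicate summits numbered 20, at daf-12, lin-14, blmp-1, lin-29, lin-41 and ain-1. Pairs were mutually nearest summits within 200 bp. Of the 58 replicate 1 summits at the members, 34.5% had a replicate 2 summit within 200 bp, against 29.3% of all nuclear replicate 1 summits. Of the 72 replicate 2 summits, 27.8% had a replicate 1 summit, against 18.9% of all. The other 4 genes, lin-28, lin-42, hbl-1 and lin-46, had no matched pair.

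The median log2 ratio of replicate 1 over replicate 2 was -0.19 over the 20 member pairs (SD 0.69) and -0.46 over all 5458 matched nuclear pairs (SD 0.54). Replicate 1 had the higher signal in 8 of 20 member pairs (40%) and in 17.6% of all pairs. The member pairs spread widely, with log2 ratios between -1.26 at the lin-14 3' UTR and 1.62 at ain-1. After the median of all pairs was subtracted the members' median was 0.27. The blmp-1 thresholded summit had a log2 ratio of -0.12, at percentile 75.7 of all pairs. The signal scales of the replicate lists need not be the same, so ratios are read against all pairs.

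**Figure D3:**
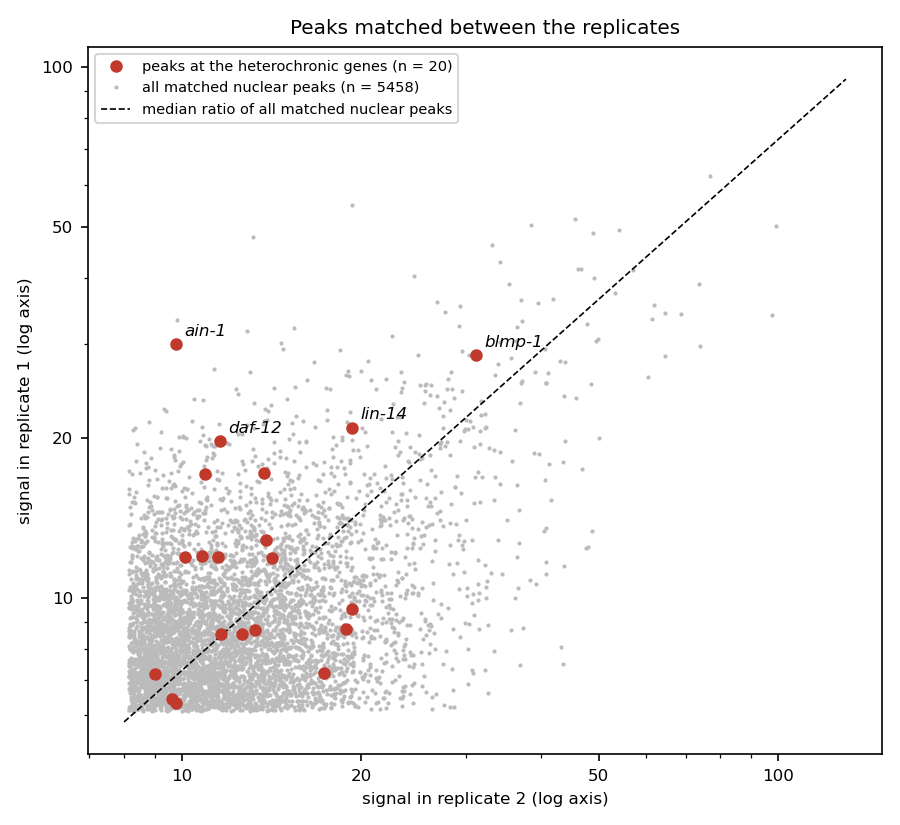
Each point is a peak matched between replicates, with the replicate 2 signal on the x axis and the replicate 1 signal on the y axis, both log axes, members in red and all matched nuclear peaks in grey. The ain-1 point, 30.0 against 9.79, stands far above the dashed line of the median ratio, and the blmp-1 point lies among the highest in both replicates.

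The base composition midway between the paired summits was set beside these ratios. Where the GC content within 50 bp was at least 42.6%, the 6 member pairs had a median log2 ratio of 0.09 and all 1308 such pairs had -0.45. Where it was at most 30.7%, the 4 member pairs had -0.52 and all 1557 such pairs had -0.49. Replicate 1 was higher in 4 of the 6 GC-rich member pairs and in 0 of the 4 GC-poor ones. Of the 10 pairs between, 2 at 31.7% to 35.6% GC had a median of -0.23 with replicate 1 higher in 1, and 8 at 36.6% to 41.6% had -0.29 with replicate 1 higher in 3. The blmp-1 pair 4060 bp upstream, at 31.7% GC, had a log2 ratio of 0.65, so the order by GC content did not hold for every pair. Over all pairs the shares with replicate 1 higher were 21.6% where GC was high and 13.9% where it was low. In the ranges between, in rising order of GC, they were 18.1% and 17.6%, with median log2 ratios of -0.43 and -0.45. The part of base composition in the members' replicate differences was not tested.

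The summits of lin-41 and lin-28 were among 30 of 189 nuclear peaks (15.9%) in the top set of replicate 1 that had no replicate 2 summit within 200 bp. By signal they were numbers 3 and 4 of those 30, with the peaks nearest to C30E1.4 (39.3, rank 41) and spc-1 (34.2, rank 54) above them. The strongest peaks of replicate 2 lacked a replicate 1 summit about as often, 29 of 190 or 15.3%, and none of these was nearest to a member. Of the 3 other members in the top set of replicate 1, blmp-1 had a replicate 2 partner of rank 169, lin-14 of rank 1336 and ain-1 of rank 19817. A replicate 2 partner below rank 10000 was found for 14 of 189 strong nuclear replicate 1 peaks (7.41%), and one within the top 1000 for 102 (54.0%).

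Summits were more closely spaced at the median member than at the median gene, though not at every member. Below the median gene lay lin-46 in the pooled and replicate 1 lists, at 0.145 per kb, and lin-42 in replicate 2, at 0.249. Per kb of gene body and upstream window, the median member had 0.472 pooled summits and the median gene 0.290, or 0.280 among genes of like window length. In replicate 1 the medians were 0.336 for members and 0.162 for all genes, and in replicate 2 they were 0.362 and 0.289. The range over members in the pooled list ran between 0.145 at lin-46 and 0.859 at blmp-1. The 4 members on X had 0.573 per kb, against 0.325 for X as a whole, and the 3 on chromosome I had 0.574 against 0.295. The 2 on chromosome II had 0.320 against 0.290, and lin-46, alone on chromosome V, lay below its chromosome at 0.145 against 0.281. Most peaks of the relaxed lists are weak, so these spacings are largely those of weak peaks. The median signal of member summits was 16.0 in the pooled list, 8.72 in replicate 1 and 11.6 in replicate 2, against 15.1, 7.93 and 10.8 for all nuclear peaks.

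**Figure D4:**
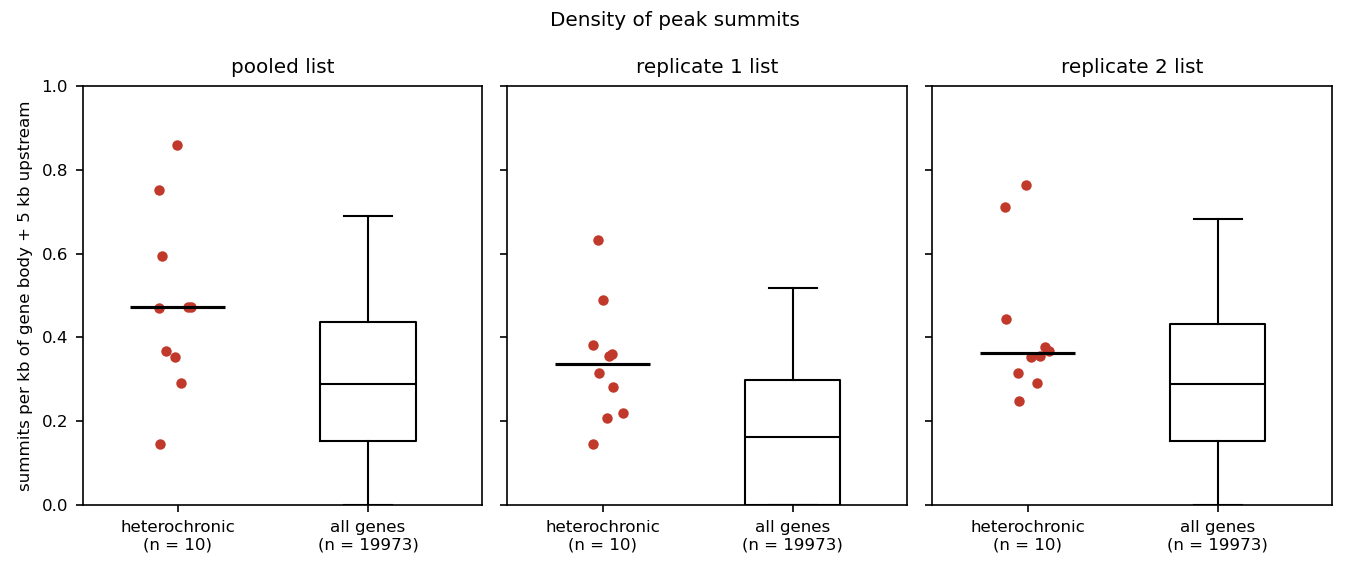
Summits per kb of gene body and upstream window are shown for each list, with 1 red point per heterochronic gene and a bar at their median. Beside them is a box of all 19973 genes (25th to 75th percentile and median, with whiskers at outer percentiles and genes beyond them not drawn). The members' medians of 0.472, 0.336 and 0.362 lie above those of all genes, 0.290, 0.162 and 0.289, with members on either side of the all-gene medians.

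Introns held 42 of the 80 pooled member summits (52.5%) and the upstream windows held 29 (36.3%). Over the windows of all protein-coding genes the shares were 21.5% in introns and 64.2% upstream. A summit was counted there once for each gene window that held it, which gave 49860 entries from 29975 nuclear pooled peaks. The members have the longer windows, with a median of 11.7 kb against 7.03 kb for all genes and the same upstream length in each, so a larger part of their windows is gene body. The part of window length in these shares was not tested. The 3' UTRs held 6, coding sequence 2 and a 5' UTR 1. In replicate 1 the counts were 28 in introns and 21 upstream of 58, and in replicate 2 they were 33 and 29 of 72. Within 500 bp of an annotated transcript start of the member lay 6 of 80 pooled summits (7.50%, against 17.7% over all genes), 5 of 58 replicate 1 summits (8.62% against 18.2%) and 6 of 72 replicate 2 summits (8.33% against 17.5%). For 64 of the 80 pooled summits the nearest gene start was that of the member itself. The exceptions included the 3' part of lin-14, nearer to spp-9, and the far end of daf-12, nearer to F13E6.2. The closest summit beyond the upstream limit was one of lin-14 in replicate 2, 135 bp outside it, with a signal of 12.5 (rank 9454), and the closest inside was one of lin-14 in replicate 1, 252 bp from the limit, with 7.68 (rank 10631).

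Words of the engrailed homeodomain type were counted at member summits. TAATTA, searched on both strands within 50 bp of the summit, was at 1 of 80 pooled member summits (1.25%) and at 5.24% of all nuclear pooled summits. The shorter TAAT, which TAATTA and TAATTG contain, was at 48.8% against 66.4%, and TAATTG was at 6.25% against 9.17% (8.33% against 9.03% in replicate 2). GAGAGA was at 12.5% of pooled member summits against 6.73% of all, at 17.2% against 7.73% in replicate 1 and at 8.33% against 6.31% in replicate 2. Among summits in the top 1000, GAGAGA was at 4 of 9 at members and 15.6% of all in the pooled list, at 5 of 10 and 18.5% in replicate 1, and at 1 of 3 and 14.4% in replicate 2. The members concerned in the pooled list were blmp-1, with 3 summits, and lin-41. The median GC content was 37.1% at member summits and 33.7% at all pooled summits. These are matches of letters, not sites, and nearby summits of 1 gene are not independent.

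The other genes of the pathway, a list of 22 with partner proteins and microRNA genes, all had a summit in each relaxed list, as 86.7% of all genes did in the pooled list, 74.9% in replicate 1 and 87.1% in replicate 2. These shares of all genes, and those below, are over protein-coding genes only, whereas the 22 include microRNA genes. A thresholded summit was found for 2 of 22, nhl-2 and puf-9, against 1.8% of all genes. NHL-2 is a TRIM-NHL cofactor of microRNA silencing, and its summit, at -886 bp from the gene start, had 81.7 pooled (rank 46), 41.6 in replicate 1 and 46.7 in replicate 2, there at -833 bp. PUF-9 is a Pumilio-type RNA-binding protein, and its summit, at -325 bp, had 87.3 pooled (rank 43), 26.1 in replicate 1 and 60.6 in replicate 2. Both exceeded the blmp-1 signal of 61.9 in the pooled list. The top set held 3 of the 22 in replicate 1, with nhr-25 beside them, against 1.74% of all genes, and 3 in replicate 2, with ain-2 beside them, against 1.68%. The nhr-25 gene encodes a nuclear receptor of moulting, and ain-2 is the close relative of ain-1. At ain-2 the replicates stood the other way round from ain-1, with best signals of 10.5 (rank 3557) in replicate 1 and 32.3 (rank 144) in replicate 2. In the top 1000 were 11 of the 22 in the pooled list, 8 in replicate 1 and 9 in replicate 2, against 7.7%, 7.62% and 7.72% of all genes. This list too was drawn up with results of these data known, so the distance from those shares is no evidence about it.

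The genes with best ranks most like those of the members with strong replicate 1 peaks were picked among 13089 genes with a summit in all 3 relaxed lists. The measure was the Euclidean distance of the log10 ranks in the replicate 1, replicate 2 and pooled lists. Nearest to blmp-1 were eef-1A.1 and rfc-4, which had the same best ranks as each other, at 0.0477. For lin-14 they were duo-3 and Y106G6H.14, which also shared their best ranks with each other, at 0.0574. For lin-28 the nearest was F02E9.7, at 0 because its window takes in the same summits, followed by Y54G2A.28 at 0.143. For lin-41 they were unc-41 at 0.179 and acox-1.6 at 0.190. The ain-1 pattern had no near match, its closest being epg-6 and Y39A1A.3 at 0.493, again with the same best ranks as each other.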

How the data were processed

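Peak lists were used as deposited for 2 biological replicates of CEH-16 immunoprecipitation, numbered by the labels, with the pooled and thresholded lists of the series, all on ce11. Per the labels, chromatin was sonicated. The aligner and peak caller are not given in the sources used here, and the control was not analysed here. The deposited lists give a signal per peak and a score, which the authors left below 0 for 29528 pooled and 29596 replicate 2 peaks, so the score was not read as a probability and served as an alternative ranking only. Signal was used within lists to rank peaks, and between matched replicate peaks as a ratio set against that of all matched peaks. The lists give no counts, so depth and counting error are unknown, and ranks from lists of unequal length show no change.

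Genes came from Ensembl release 115 (let-7 from RefSeq), matched by symbol. Summits were taken in gene bodies and 5000 bp upstream, and matched between replicates within 200 bp. Words were searched within 50 bp of summits on both strands. The members and lists were chosen with earlier results of these data known, so no test was run. All 10 members are named, with the other pathway genes in the top set of any list, and as most like, the 2 genes of closest best ranks for members in the top set of a replicate. The genes nearest to the strongest unmatched replicate 1 peaks, the GC split and the position shares over all genes were chosen after values were seen. Alternatives changed the window, the matching distance, the rank limit, the ranking and the replicates. The steps were checked on planted peaks. Python 3.11.15, numpy 2.4.6 and pandas 2.3.3 were used.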

Additional observations from a re-analysis of the deposited data

How the results depend on the processing

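Of 42 alternative values, 32 kept within 1.5 times the reported count or within 1 standard error (over the member pairs) of the reported ratio, 10 moved and none reversed. With 2000 bp upstream in place of 5000 bp, members with a thresholded peak fell to 0 and those in the top set of replicate 2 to 0, since the blmp-1 summit lies farther out. With gene bodies only, the counts were 0 with a thresholded peak, 2 in the top set of replicate 1, 0 in that of replicate 2, 5 in both replicate lists, and 51 pooled summits in place of 80. Among the 100 strongest of replicate 2 there was no member (0). With each replicate left out in turn, and the top set of the other taken as the thresholded list, between 1 and 5 members had a thresholded peak, the 5 coming without replicate 2. All 10 kept a peak either way, and the summits numbered 58 to 72. The members' median log2 ratio, 0.27 after centring, was 0.43 for summits within 100 bp and 0.17 within 500 bp, and the cause was not tested. Without read counts the effect of depth was not examined. No paired analysis was possible because the 2 replicates form 1 group.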
